A study of Mus musculus with 4 samples.

Results

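Single cells sorted as group 2 innate lymphoid cells (ILC2s, cytokine-secreting lymphocytes that carry no antigen receptor) from mouse liver and lung also held cells that the authors annotated as CD4, and the genes that mark these CD4 T cells were described here. The members were all 131 genes that the authors' cell type table gives for the type CD4, out of 1679 genes given for at least 1 of its 21 types (7.80%). A gene given for a type is called listed here, which means that the authors found a higher average value in that type than in all other cells. The mice were wild-type BALB/c animals, 8 weeks old, injected intraperitoneally on each of 5 days with PBS or with rIL-33, the recombinant form of the alarmin IL-33, at 0.5 µg per injection, and tissue was pooled from 2 to 6 mice per group. Each of the 4 groups, PBS lung, PBS liver, rIL-33 lung and rIL-33 liver, was a single library. The table pools all 4 libraries, so neither rIL-33 with PBS nor liver with lung could be compared, no value has a replicate, no test was made, and the tables give neither the depth nor the number of cells.

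CD4 T cells carry an αβ T cell receptor joined to the CD3 signalling chains, and the CD4 co-receptor binds MHC class II molecules on antigen-presenting cells. After antigen contact and costimulation through CD28 they become helper cells that direct other immune cells through cytokines and surface ligands, while naive and central memory cells recirculate through blood and lymph nodes. Regulatory T cells (Treg) are a CD4 lineage set by the factor FOXP3 and had a type of their own in the table. The sorting gate kept cells that stained positive for CD127, Thy1 and ST2 and removed cells with CD3e or TCRβ protein on their surface. Genes of the CD3 complex and the TCR β chain were nevertheless on the CD4 list.

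The table gives 2 measurements per listing: the share of the type's cells in which the gene had a value above 0, and the same share in all other sorted cells. From these shares, the type CD4 was solved to make up 3.16% ± 0.0184 (SE of the fit) of the sorted cells, the 8th largest of the 21 types. The αβ T cell types CD4, Treg, CD8_Naive and CD8_Effector together made up 8.59%. Treg held 2.06% of the cells, CD8_Naive 2.71%, CD8_Effector 0.660% and gdT_Naive, a γδ T cell type, 6.08%. The SE covers rounding in the shares, not differences between animals.

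The label CD4 was set against its markers, although being listed is what the authors' annotation and the choice of members rest on, so this is a description and no independent check. Of the 12 genes of a CD4 T cell marker list, 11 were in the table and 9 of these were listed for CD4, namely *Trac*, *Cd4*, *Cd28*, *Icos*, *Ctla4*, *Cd40lg*, *Cd5*, *Cd6* and *Trat1*. Treg listed 10 of the 11. The share was lower in CD4 than in other cells for *Icos*, *Ctla4*, *Cd40lg* and *Cd6*. *Izumo1r* and *Tnfsf8* were listed for other types only. The CD8 co-receptor genes *Cd8a* and *Cd8b1* were not listed for CD4, and neither were *Foxp3*, which defines Treg cells, nor *Trdc*, the constant gene of the TCR δ chain. *Foxp3* was listed for Treg alone.

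The T cell receptor and CD3 complex gave the fullest group, with 6 of 6 genes listed for CD4, beside 7.80% of all genes in the table. Treg, CD8_Naive and CD8_Effector also listed all 6, and gdT_Naive listed 5. *Trac* (GRCm38 chromosome 14, 54220521 to 54224206, plus strand), the constant gene of the TCR α chain, had a value above 0 in 87.8% of CD4 cells and in 70.5% of all other cells. Its share was 93.6% in CD8_Effector, 91.2% in CD8_Naive, 87.3% in Treg, 74.3% in ILC3 and 64.8% in gdT_TypeI. CD4 and Treg cells were thus within 1 percentage point of each other for *Trac* and below both CD8 types. The 15 types that did not list *Trac* averaged 69.9%, as solved from the sizes of the types, so a value above 0 was common there too.

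The signalling chains of the receptor, *Cd3g*, *Cd3d* and *Cd3e*, lie side by side on chromosome 9 within 40 kb (44969572 to 45009627), with no other protein-coding gene between the outer ends of the cluster. *Cd3g* and *Cd3d* start 1355 bases apart on opposite strands. The share was 98.3% in CD4 against 85.1% in others for *Cd3g*, 97.2% against 83.1% for *Cd3d* and 96.2% against 83.1% for *Cd3e*. All 3 were listed for the same 8 other types: Treg, both CD8 types, ILC3, gdT_Naive, gdT_TypeI and both gdT_TypeIII types. *Cd3d* separated them most, from 81.9% in ILC3 and 91.1% in CD8_Effector to 99.8% in CD8_Naive. The pair of β chain constant genes, which are near copies of each other, differed in direction. *Trbc2* was at 98.1% in CD4 against 91.2% in others and *Trbc1* at 74.7% against 87.6%, and reads shared between such copies make both values uncertain.

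Promoter windows of the 3 CD3 genes are shown because these neighbours were listed together, and that of *Trat1*, a gene for a transmembrane adaptor that stabilises the receptor complex, because it was listed for few types other than CD4. Each window runs from 250 bases before to 50 after the annotated start, is written 5′ to 3′ on the strand of the gene, and comes from RefSeq on build GRCm38.p6. The windows are chr9:44980382-44980681 (minus strand) for *Cd3g*, chr9:44981536-44981835 (plus) for *Cd3d*, chr9:45009562-45009861 (minus) for *Cd3e* and chr16:48772013-48772312 (minus) for *Trat1*. Capitals mark matches, on either strand, to the letters CTTTGA (core of TCF/LEF sites), TGTGGT (core of RUNX sites) or CACCC (core of KLF sites).
Cd3g: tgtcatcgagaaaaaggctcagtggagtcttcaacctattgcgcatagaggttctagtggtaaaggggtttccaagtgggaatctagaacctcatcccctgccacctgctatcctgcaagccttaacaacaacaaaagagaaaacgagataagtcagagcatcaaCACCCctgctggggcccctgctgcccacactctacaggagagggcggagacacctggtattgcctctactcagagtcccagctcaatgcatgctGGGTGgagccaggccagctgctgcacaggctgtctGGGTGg
Cd3d: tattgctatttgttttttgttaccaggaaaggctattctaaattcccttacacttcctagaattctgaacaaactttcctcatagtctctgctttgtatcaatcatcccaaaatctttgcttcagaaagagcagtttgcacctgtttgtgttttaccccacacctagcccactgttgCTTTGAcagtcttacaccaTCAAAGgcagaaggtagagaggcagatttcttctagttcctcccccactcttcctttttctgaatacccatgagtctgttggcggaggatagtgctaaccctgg
Cd3e: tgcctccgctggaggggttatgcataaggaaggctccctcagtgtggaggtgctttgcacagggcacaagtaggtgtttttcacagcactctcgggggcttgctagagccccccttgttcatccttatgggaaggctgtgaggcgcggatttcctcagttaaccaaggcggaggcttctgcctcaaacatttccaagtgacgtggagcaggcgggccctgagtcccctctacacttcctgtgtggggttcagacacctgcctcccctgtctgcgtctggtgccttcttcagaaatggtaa
Trat1: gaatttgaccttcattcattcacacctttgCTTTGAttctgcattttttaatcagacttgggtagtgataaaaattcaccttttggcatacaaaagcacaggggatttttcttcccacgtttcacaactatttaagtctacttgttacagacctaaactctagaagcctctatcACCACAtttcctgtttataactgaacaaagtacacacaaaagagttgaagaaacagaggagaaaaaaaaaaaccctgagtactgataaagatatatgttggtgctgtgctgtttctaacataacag
*Cd3d* held 2 TCF/LEF matches, *Cd3g* 3 KLF matches, *Trat1* 1 TCF/LEF and 1 RUNX match, and *Cd3e* held none of these letters. The TCF/LEF and KLF families include *Tcf7*, *Lef1* and *Klf2*, which were themselves on the CD4 list. Of the 131 members, 101 had at least 1 window in the RefSeq table, 130 windows in all. CTTTGA was in 15.4% of these windows, in 12.7% of the 1660 windows of all genes in the table and in 16.0% of all 32851 windows. TGTGGT was in 10.0%, 14.5% and 16.8%, and CACCC in 63.8%, 64.9% and 57.5%. For CTTTGA and CACCC the members were above one of these backgrounds and below the other. A match is a run of letters and not a measured binding site.

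Among genes that act next to the receptor, 4 of the 6 in the table were listed for CD4, beside 7.80% of all its genes. CD8_Naive and CD8_Effector listed all 6, gdT_Naive 5 and Treg 3. *Lck*, the kinase that phosphorylates the CD3 chains, was at 83.9% in CD4 against 80.6% in others and had 9 other listing types, from 62.2% in ILC2_2 to 93.0% in CD8_Naive. *Cd2*, an adhesion receptor of T and NK cells, was at 85.6% against 82.9%. *Thy1*, a surface protein used in the sorting gate, was at 82.7% against 86.5%. *Themis*, which is required for T cell selection in the thymus, was at 57.6% against 69.3%. The CD4 share was therefore higher for the first pair and lower for the other pair.

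The co-receptor *Cd4* (chromosome 6, 124864692 to 124888221, minus strand) had a value above 0 in 67.3% of CD4 cells and 54.0% of all others. Other types had a higher share for this gene than the type that carries its name. Macrophage was at 78.4%, ILC1_ILC3 at 77.0%, Treg at 64.2% and ILC2_2 at 47.8%, so the CD4 type came after both Macrophage and ILC1_ILC3 among the 5 listing types. The 16 types without a listing averaged 52.5%. CD4 and Treg were the only αβ T cell types that listed *Cd4*.

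**Figure D1:**
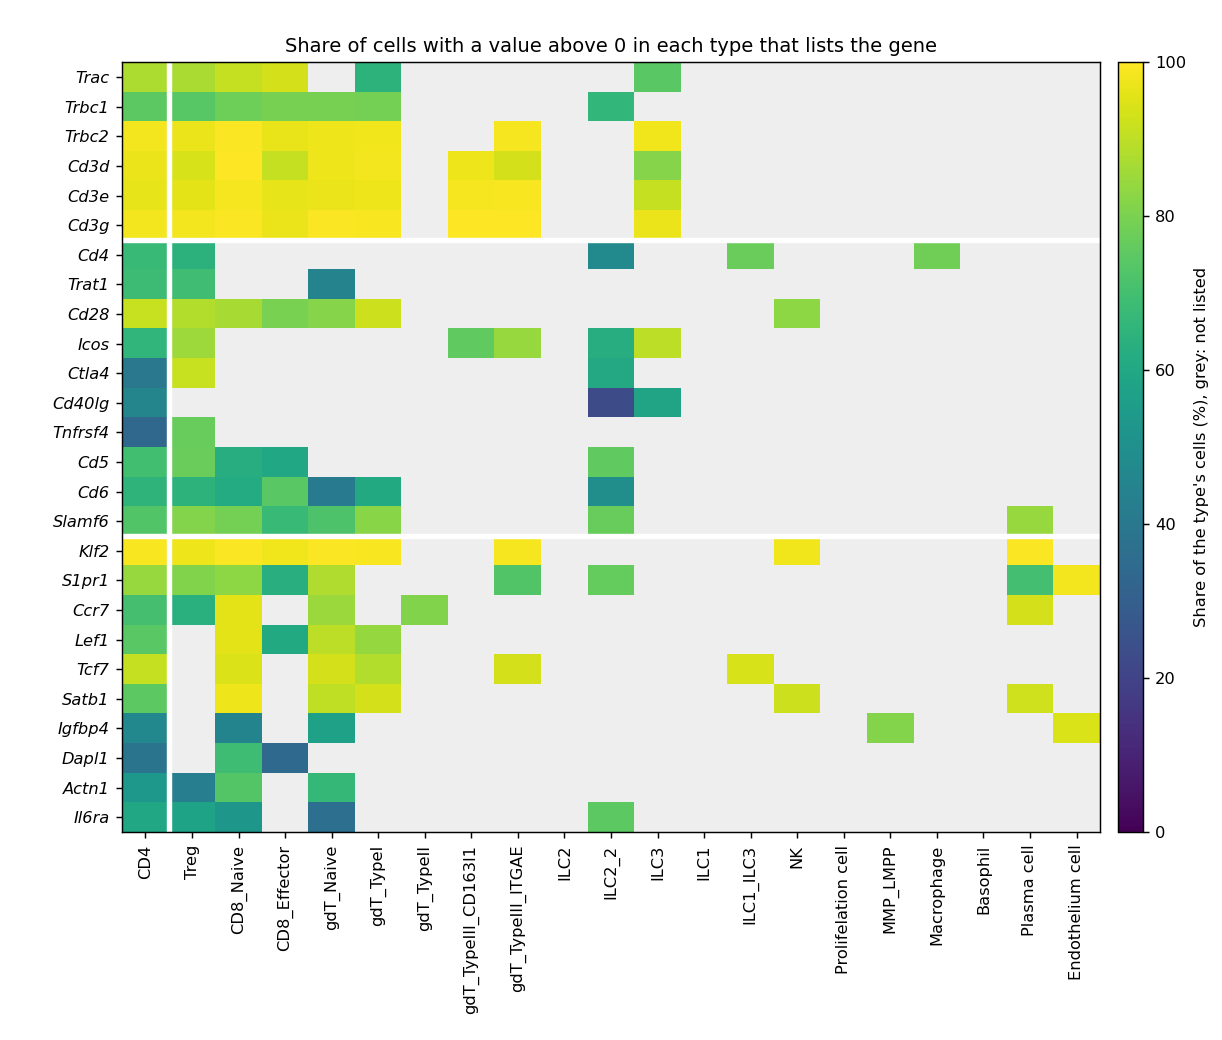
Share of cells with a value above 0 (colour, 0 to 100%) for 26 genes of the receptor complex (top), helper and costimulation genes (middle) and naive and recirculation genes (bottom) in each of the 21 types, as deposited for the pooled libraries; grey cells are genes not listed for the type. The CD3 rows are bright in all 9 types that list these genes, whereas *Ctla4* is at 40.0% in CD4 and 91.6% in Treg.

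Costimulation and checkpoint genes were listed for CD4 in 8 of the 15 cases found in the table, beside 7.80% of all its genes. Treg listed 10 of the 15, CD8_Naive and gdT_Naive 6 each, and CD8_Effector 4. *Cd28*, *Ctla4* and *Icos* form a cluster of related receptors on chromosome 1 (60716800 to 61000320, 284 kb) with no other protein-coding gene inside, and all 3 were listed. *Cd28*, the main costimulatory receptor of naive T cells, was at 91.7% in CD4 against 81.8% in others. Only gdT_TypeI, at 92.2%, had a higher share among the 7 listing types, and Treg was at 88.6%. *Icos*, a costimulatory receptor that appears on activated T cells, was at 66.0% against 73.0%. Its share was 85.4% in Treg and 89.9% in ILC3. *Ctla4*, the inhibitory counterpart of *Cd28*, was at 40.0% of CD4 cells against 49.9% of others, with 60.4% in ILC2_2 and 91.6% in Treg. Although *Ctla4* was given as a marker of the CD4 type, its share there was the lowest of its 3 listing types and lower than outside.

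*Tnfrsf4*, which encodes the costimulatory receptor OX40, was listed for CD4 (33.3%) and Treg (76.8%) alone, beside 48.1% of all cells outside CD4. *Ctla4* and *Tnfrsf4* were the 2 of 12 genes of the Treg list that CD4 listed, whereas Treg listed 9. *Cd40lg*, the ligand by which helper T cells activate B cells and dendritic cells, was at 45.6% in CD4 against 54.9% in others. Its only other listings were ILC3 at 58.5% and ILC2_2 at 22.7%, and no other T cell type listed it. *Trat1* was at 68.4% against 58.3%, with 69.3% in Treg and 44.8% in gdT_Naive. The scavenger receptor neighbours *Cd5* and *Cd6*, which tune receptor signals and lie within 113 kb on chromosome 19, were at 69.8% against 67.1% and 65.0% against 66.1%. *Slamf6*, a homophilic receptor of lymphocytes, was at 72.9% against 76.6%.

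Naive and recirculation genes were listed for CD4 in 11 of 15 cases, beside 7.80% of all genes in the table. CD8_Naive listed 14 of the 15, gdT_Naive 13 and Treg 6. *Klf2*, a factor that drives *S1pr1* in naive T cells, was at 99.2% in CD4 against 85.0% in others. *S1pr1*, the receptor by which lymphocytes leave lymphoid organs, was at 84.7% against 68.4%. Among the T cell types that listed it, its share was 88.0% in gdT_Naive, 83.2% in CD8_Naive, 81.0% in Treg, 73.0% in gdT_TypeIII_ITGAE and 62.6% in CD8_Effector. The factor *Tcf7* was at 91.3% against 78.3%, and its relative *Lef1* at 74.4% against 69.5%. The 4 genes had a higher share in CD4 than in others.

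Other genes of naive T cells went the other way. *Ccr7*, the receptor for entry into lymph nodes, was at 70.6% against 72.7%, with 95.9% in CD8_Naive, 85.0% in gdT_Naive and 63.6% in Treg. *Satb1*, a chromatin organiser of T cells, was at 74.9% against 83.1%, beside 97.4% in CD8_Naive. CD4 thus had lower shares than CD8_Naive and gdT_Naive for both genes, *Satb1* being at 90.5% in gdT_Naive. *Dapl1* was at 38.4% in CD4, 34.0% in CD8_Effector and 69.1% in CD8_Naive. Of the other members, *Igfbp4*, *Actn1* and *Il6ra* were at 46.8%, 53.3% and 60.0% in CD4, each lower than outside. *Ly6c1*, *Ly6c2*, *Cd27* and *Ccr9* were in the table and not listed for CD4.

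Helper subset lists were short, with 6 to 8 genes in the table, and their counts are near the background of 7.80% of all its genes. The Th1 list (0 of 6 in the table, with *Tbx21* and *Ifng*) and the Th17 list (0 of 7, with *Il17a* and *Il17f*) had no CD4 listing. Of the Th2 list 1 of 8 was listed, *Ccr4*, a chemokine receptor of Th2 and Treg cells, at 26.8% in CD4 against 32.3% in others and 28.9% in Treg. *Gata3*, *Il4*, *Il5* and *Il13* were not listed for CD4. *Slamf6* was the single listing among 8 genes of the follicular helper list. A missing listing does not show that a gene was absent, since genes that are lower, unchanged or untested are all missing alike.

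*Il2*, the growth factor of activated T cells, was listed for CD4 with a share of 29.4%, against 63.9% of all other cells. ILC2 was at 80.2% and ILC1_ILC3 at 64.5%, and no other T cell type listed it. *Maf*, a factor of helper and γδ T cells, was at 42.3% in CD4 against 68.6% in others, with 97.5% in gdT_TypeIII_CD163l1. *Ccr10*, a skin homing receptor, was at 20.5% against 47.7%, the lowest CD4 share of all members. *Cxcr4*, the receptor for CXCL12, was at 74.3% against 86.8%. It was 1 of 5 listings among 12 genes of the chemokine receptor and tissue exit list, which also held *Ccr4*, *Ccr7* and *S1pr1*. Treg and gdT_Naive also listed 5 of these 12 genes and CD8_Naive 4, while CD4 listed 7.80% of all genes in the table. *Itgb1*, the integrin β1 chain, was at 58.4% in CD4, 69.9% in others and 89.9% in Treg.

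Of 25 activation and immediate early genes in the table, 5 were listed for CD4. *Dusp10*, a phosphatase of stress kinases, was at 79.3% against 73.6%, and was the only member with its highest share in CD4 among its listing types, followed by CD8_Naive at 73.1%. *Nfkbia* was at 87.8% against 93.6% and *Tnfaip3* at 91.0% against 92.6%; both encode inhibitors of NF-κB signalling. The factor gene *Klf6* was at 89.5% against 93.8%, and *Btg2*, which restrains proliferation, at 96.5% against 94.4%. *Cd69*, *Cd44*, *Nr4a1*, *Egr1*, *Fos* and *Jun* were among the 20 that CD4 did not list. All 5 listed genes were also listed for Treg.

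The MS4A family gave 3 CD4 listings of 6, beside 7.80% of all genes in the table, and these 3 genes lie within 88 kb on chromosome 19. CD8_Naive and CD8_Effector also listed 3 genes of this family, and Treg and gdT_Naive 2 each. *Ms4a4b* was at 99.3% against 87.1% and *Ms4a6b* at 94.2% against 82.5%. *Ms4a6c* lies between them and was at 22.5% against 49.0%, with 65.9% in Macrophage. Neighbouring members of one family therefore sat at opposite ends of the shares. The GTPase gene *Gimap4* was at 84.6% against 81.0%. Of 12 interferon response genes, 4 were listed for CD4, 6 for gdT_Naive and 5 for Treg, beside the 7.80% of all genes that CD4 listed. Among the 4 were *Ifi27l2a* at 73.2% against 57.0%, *Igtp* at 35.1% against 50.2%, and *Gbp2* at 27.0% against 57.8%. For *Ifi27l2a* the share was 88.0% in Treg and 42.5% in gdT_Naive.

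Markers of the other cell types in the table were counted next, beside the 7.80% of all its genes that CD4 listed. None of 16 ILC2 genes, 14 NK cell and ILC1 genes, 14 B cell genes, 9 CD8 T cell genes, 9 basophil genes or 5 myeloid genes was listed. The γδ T cell list gave 1 of 12, *Maf*, and the proliferation list 1 of 12, *Cenpa*, at 42.5% against 55.4%. The last 2 counts are near that background. No level of the unlisted markers in CD4 cells is known from the table, so their part in the results was not tested.

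Across all 131 members the CD4 share was higher than that of all other cells for 31 genes and lower for 100. A higher share therefore held for 23.7% of CD4 listings, beside 83.6% of all 4422 listings of the 21 types. The median share was 59.6% in CD4 and 68.3% in others, and the median difference was -8.6 percentage points. A difference of at least 10 percentage points upward held for 14 members (10.7%), beside 65.5% of all listings. These were *Trib2*, *Trac*, *S1pr1*, *Ifi27l2a*, *Klf2*, *Cd3d*, *Ass1*, *Cd4*, *Cd3g*, *Cd3e*, *Tcf7*, *Ms4a4b*, *Ms4a6b* and *Trat1*, and *Cd28* lay just under the limit. Their largest difference was that of *Trib2*, a pseudokinase gene, at 63.7% against 44.6%, and *Ass1*, an enzyme of arginine synthesis, was at 65.2% against 51.8%. The listing rests on the average value and the share on how many cells are above 0, so both need not go the same way.

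**Figure D2:**
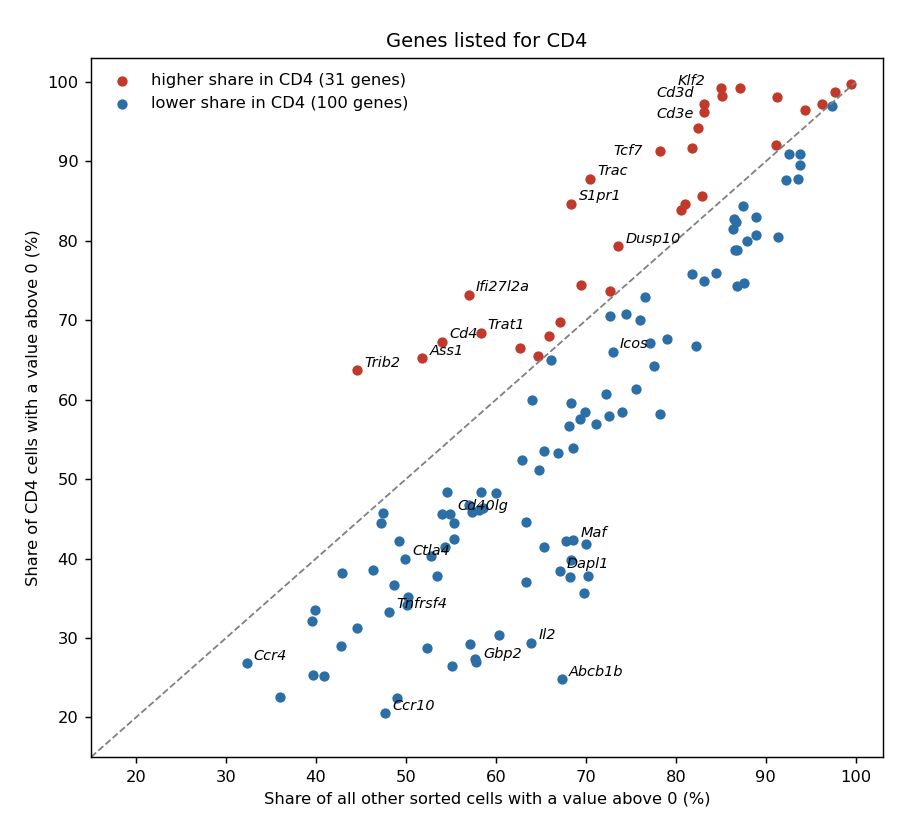
Share of CD4 cells (y axis, %) against the share of all other sorted cells (x axis, %) with a value above 0, for each of the 131 genes listed for CD4; the dashed line marks equal shares and 31 genes lie above it. Receptor genes such as *Trac* and *Cd3e* lie above the line and *Abcb1b*, *Il2* and *Ccr10* far below it.

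A set of 21 genes was at least 20 percentage points lower in CD4. *Abcb1b*, a drug efflux transporter, had the largest difference, with 24.8% in CD4 against 67.3% in others and 28.1% in CD8_Naive. After *Il2*, *Errfi1* was at 35.7% against 69.8%, and *Maff*, a small MAF factor, at 37.8% against 70.2%. *Ipcef1* was at 37.7% against 68.2%, *Dtx1*, a regulator of Notch signalling, at 27.4% against 57.7%, and *Tiam1*, an activator of RAC1, at 30.4% against 60.4%. *Timp2*, an inhibitor of metalloproteinases, was at 26.5% against 55.1%. Of the 80 listings of the 21 genes for other types, 33 had a lower share inside than outside (41.3%), as *Gbp2* did in gdT_Naive at 32.9% and in Treg at 39.0%. For 6 of the 21, *Il2* and *Maff* among them, no other listing type had a lower share inside.

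Listing with a lower share was commonest in CD4 and gdT_Naive. The percentage of listings with a lower share was 76.3% in CD4, 74.5% in gdT_Naive, 60.6% in CD8_Effector, 57.1% in CD8_Naive, 53.0% in ILC2_2, 51.3% in Treg and 27.6% in gdT_TypeI. In the other 14 types it was at most 11.2%, the value of NK. Genes with a lower share in CD4 had a lower share in 152 of their 428 listings for other types (35.5%), and a higher or equal share in the rest. Genes with a higher share in CD4 had a lower share in 26 of 183 (14.2%). Over all 4422 listings the share was lower in 719 (16.3%), so the second value is near that background.

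**Figure D3:**
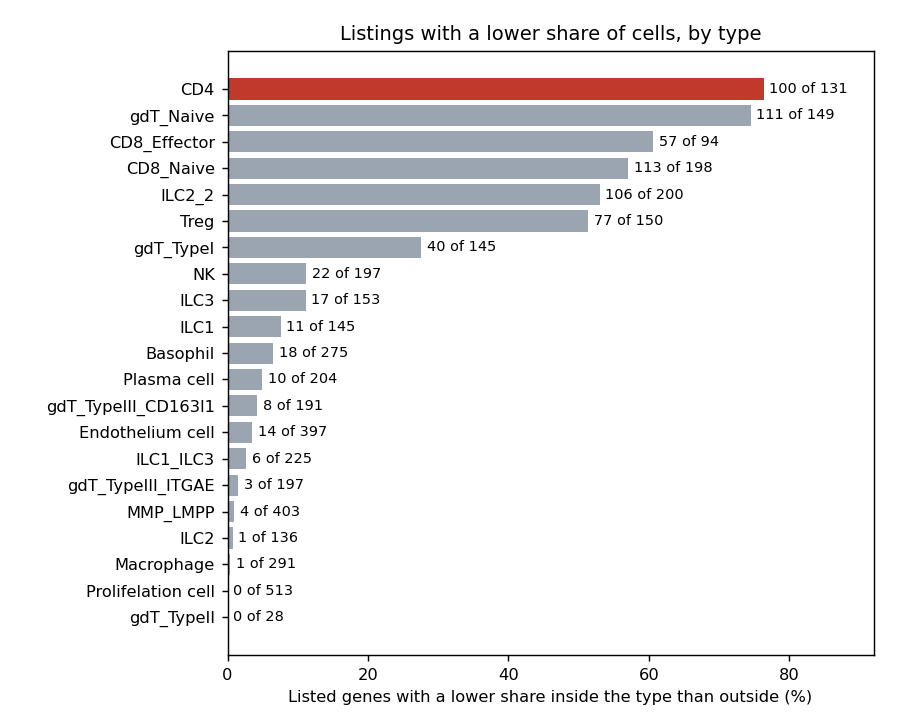
Percentage of each type's listed genes whose share of cells is lower inside the type than outside (x axis, %), with the counts beside the bars, for all 21 types. CD4 (red) is at 76.3%, with gdT_Naive next at 74.5%.

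None of the 131 members (0) was listed for CD4 alone, although 634 of the 1679 genes in the table (37.8%) were listed for 1 type only. A member had a median of 4 other listing types. Only 4 had a single other type, namely *Tnfrsf4*, *P4ha1* and *St8sia6*, shared with Treg, and *Mthfd2*, shared with the type spelled Prolifelation cell. *P4ha1* was at 37.8% in CD4 and 68.4% in Treg. CD4 had the lowest share among the listing types for 74 members.

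CD8_Naive shared 79 members (60.3% of the CD4 list and 39.9% of its own), gdT_Naive shared 75 (57.3% and 50.3%) and Treg shared 73 (55.7% and 48.7%). CD8_Effector shared 38 members, 29.0% of the CD4 list and 40.4% of its own. ILC2, the largest type, shared 3 (2.29% and 2.21%). Of all 1679 genes in the table, CD4 listed 7.80%, while CD8_Naive listed 198 genes, gdT_Naive 149 and Treg 150. The lists were all made from the same cells, each against the rest, so these overlaps are descriptions.

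**Figure D4:**
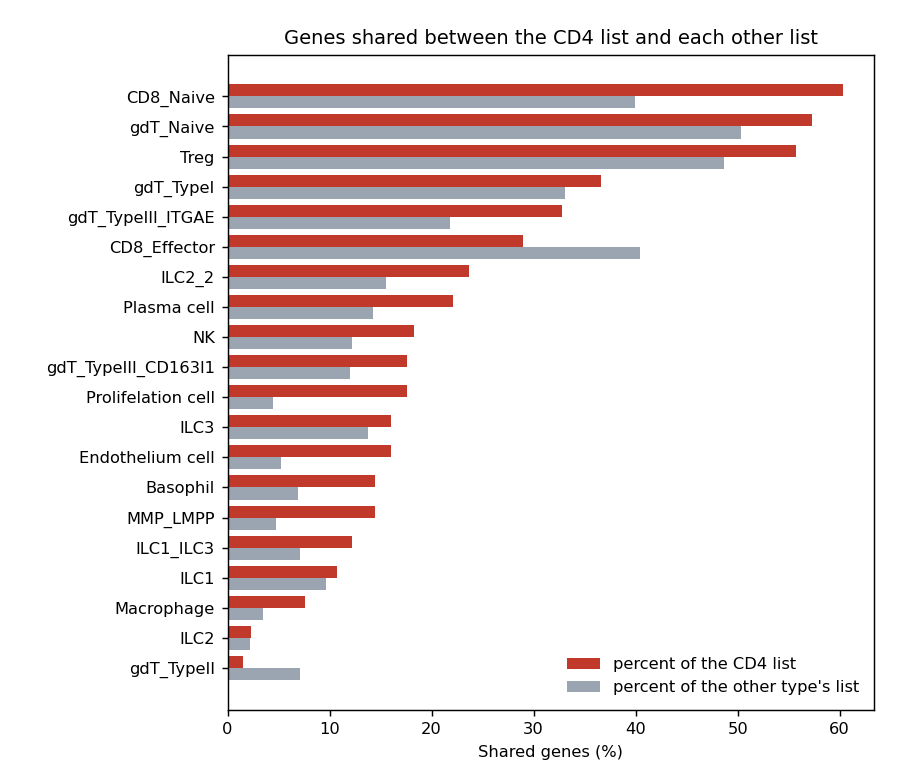
Genes shared between the CD4 list and the list of each other type, as a percentage of the CD4 list (red) and of the other list (grey). CD8_Naive shares 60.3% of the CD4 list and gdT_Naive has the largest part of its own list in common with CD4, 50.3%.

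Of the members, 113 were listed for at least 1 of Treg, CD8_Naive and gdT_Naive, and 38 for all 3. The same combinations were not counted over all 1679 genes, so these counts have no background beside them. The 38 held *Cd3d*, *Cd3e*, *Cd3g*, *Cd28*, *Cd2*, *Lck*, *Klf2*, *S1pr1* and *Ccr7*. A further 25 were listed for CD8_Naive and gdT_Naive but not Treg, among them *Lef1*, *Tcf7*, *Satb1* and *Themis*. Another 22 were shared with Treg but with neither naive type, among them *Cd4*, *Ctla4*, *Icos*, *Tnfrsf4*, *Itgb1*, *Ccr4*, *Nfkbia* and *Tnfaip3*. The CD4 list thus held genes shared with the naive types and genes shared with Treg, and the table does not show whether 1 cell carried both. Costimulation and NF-κB pathway genes were only some of the 22, beside others such as *Ass1*, *Pkm* and *Crip1*. *Nfkbia* and *Tnfaip3* were also listed for Basophil and both gdT_TypeIII types. *Ctla4*, *Icos*, *Tnfrsf4*, *Nfkbia* and *Tnfaip3* each had a lower share in CD4 than outside.

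The 18 members listed for none of these 3 types were *Ccr10*, *Cd40lg*, *Cpd*, *Dck*, *Eno1*, *Etf1*, *Hint1*, *Hspa5*, *Il2*, *Maf*, *Maff*, *Ms4a6c*, *Mthfd2*, *Pdlim4*, *Pycard*, *Selenop*, *Tesc* and *Tubb2a*. Every one of them had a lower share in CD4 than in all other cells. They held genes of T cell help (*Cd40lg*, *Il2*), glycolysis (*Eno1*), folate and nucleotide metabolism (*Mthfd2*, *Dck*) and protein folding (*Hspa5*). *Hint1* was at 91.0% against 93.8%, *Hspa5* at 87.7% against 92.2% and *Eno1* at 67.7% against 79.0%. *Dck*, which phosphorylates deoxynucleosides, was at 28.8% in CD4, 81.5% in Basophil and 89.7% in Prolifelation cell.

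Where CD4 and a near type listed the same gene, the CD4 share was higher in 28 of 73 genes against Treg, 10 of 79 against CD8_Naive and 23 of 75 against gdT_Naive. Against Treg, CD4 was farthest above for *Slfn1* and *Trib2*, the latter at 63.7% against 47.3%, and farthest below for *Ctla4* and *Tnfrsf4*. Against CD8_Naive it was above for *Cd5*, at 69.8% against 62.2%, and far below for *Sidt1* (41.8% against 77.8%) and *Dapl1*. Against gdT_Naive it was above for *Ifi27l2a*, *Trib2* (37.8% in gdT_Naive) and *Cd6* (40.7%), and far below for *Ipcef1* (56.0%). Error between animals is not known for any of these values, so no difference could be held against replicate spread.

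**Figure D5:**
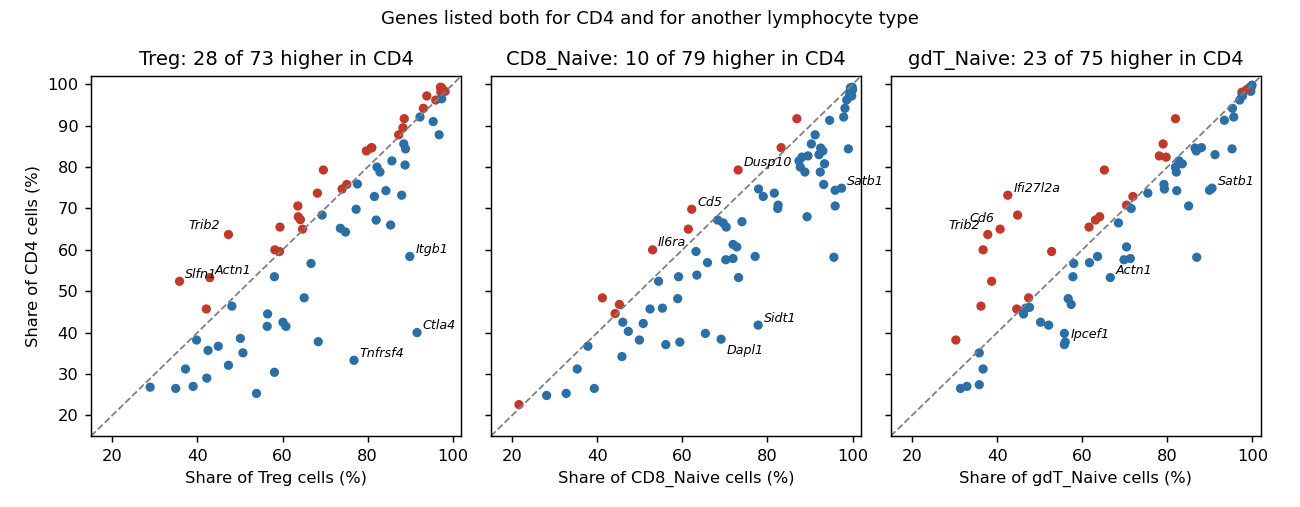
Share of CD4 cells (y axes, %) against the share of Treg, CD8_Naive or gdT_Naive cells (x axes, %) with a value above 0, for the genes listed for both types; the dashed line marks equal shares, and genes higher in CD4 are red. The CD4 share is higher in 28 of 73, 10 of 79 and 23 of 75 genes, and *Ctla4* lies far below the line in the left panel.

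The shares in this table may not simply be shares of cells with a transcript. The authors' separate table of ILC2 subclusters gives shares among the cells kept as ILC2s, in which *Cd3e* was solved to be above 0 in 5.76% of cells. The paper states that cells with markers of other types, *Cd3* among them, were removed before the ILC2s were reclustered. Whether shares of T cell genes are low there because of that removal was not tested. If the ILC2 type here, with 43.2% of all cells, had a *Cd3e* share of 5.76%, at most 59.3% of all cells could be above 0. The cell type table puts *Cd3e* above that limit, at 83.5% of all cells. The same held for 25 of the 79 members found in both tables (31.6%) and for 41 of 741 other genes (5.53%). Among the members it was so for *Ms4a4b* (87.5% of all cells, 61.8% possible) and for *Cd28* (82.1%, 59.2% possible). The paper describes normalized, log transformed and scaled values of a merged matrix, but not which of them the shares count. Values above 0 in the cell type table may therefore be scaled or batch-integrated values. The shares and differences above are differences of those values, not of expression, and the cause was not tested.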

How the data were processed

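The 4 libraries were made by the authors with 10x Genomics 3′ chemistry and aligned with Cell Ranger to mm10, per the labels. The authors removed doublets and dead cells by flow cytometry, excluded immune cells with fewer than 500 detected genes, scaled each cell to 10000 and log transformed it, clustered the merged cells in Seurat and annotated the types by hand. The methods name no doublet caller for the immune cells, and tables without cells allow none. The deposited shares of cells are fractions to 3 decimals, given inside each cluster and in all other cells, and were multiplied by 100. The deposited log2 fold changes and the deposited p-values, raw and adjusted, are the authors' own comparison and were neither used nor printed. The tables hold neither depth nor counts of cells, and no interval was set on a share.

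Members were matched by symbol to GENCODE M21 (131 of 131). Sizes of types were solved by least squares over the 1045 genes that 2 or more types list, since the share in all cells is the same whichever type lists the gene. The residual was 0.0233 percentage points (root mean square), the sizes summed to 100.1% without a constraint, and the fit was tested on simulated data. Python 3.11.15, numpy 2.4.6, pandas 2.3.3 and matplotlib 3.10.9 were used. No test was made, since each group was 1 library, cells are not replicates and the type was defined on the same cells. The genes named were all CD4 listings in a set of 24 gene lists, the 10 members with the largest and the 10 with the smallest difference of shares, and *Trac* and *Ctla4*. Genes named beyond these (such as members of the overlap groups) were chosen after their values were seen, and some genes that the rule takes are not reported here. A list of ribosomal protein genes had 0 members in the table. The members and lists were chosen with earlier results of these data known. Alternatives varied the size of a share difference, the genes counted, the size fit and the types compared.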

Additional observations from a re-analysis of the deposited data

How the results depend on the processing

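The count of members with a higher share in CD4 than in all other cells, 31 with any difference, was 17 with at least 5 percentage points and 14 with at least 10. It stayed at 31 among the 78 members found in at least 50% of CD4 cells. The CD4 size of 3.16% moved by less than its error in the 4 alternatives of the fit. gdT_Naive was the type with the largest part of its list shared with CD4, at 50.3%, at 48.6% among listings with a higher share, and at 36.6% of the genes in either list. The number of members with their highest share in CD4, 1 over all types, was 2 without Treg and 8 without CD8_Naive, CD8_Effector and gdT_Naive, by construction, since fewer types were compared. No paired analysis was possible because the tables pool the 4 libraries and no result comes from a test. The tables give no depth behind any share.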

Other observations

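CD4 members were also found in the authors' table of ILC2 subclusters, in which 10 subclusters (0 to 9) of the cells retained as ILC2s are each set against the rest. Over all its 3745 listings, 159 were of CD4 members (4.25%). Subcluster 1 listed 33 of the 131 members, 9.09% of its own list. Subclusters 4 and 5, with far longer lists, each had 26 (3.24% and 2.60% of their lists), subcluster 8 had 19 (7.51%) and subcluster 2 had 10 (7.63%). The 33 members of subcluster 1 held 4 naive and recirculation genes, among them *Klf2* at 87.4% against 43.5%, *S1pr1* at 50.5% against 9.90% and *Tcf7* at 51.8% against 18.9% of the other ILC2s. Subcluster 5 listed *Cd3e* at 32.0% against 4.70%, *Cd28* at 26.8% against 4.70% and *Ms4a4b* at 49.6% against 10.2%, although only 8 of its 26 members had a higher share inside. Listings of *Ctla4* fell in subclusters 1, 2, 4, 6 and 8, and its share was highest in subcluster 8, at 73.0%. The paper states that cells with markers of other types, *Cd3* among them, were removed before this reclustering. Whether CD4 T cells remained among the cells kept as ILC2s was not tested.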
